A study of Mus musculus with 18 samples.

Results

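The genes described here encode the proteins of the cytosolic ribosome. They were taken by symbol from an array data set, using probe sets, the groups of short probes that report on a transcript. Only probe sets that list no second gene symbol were used. Among these, every gene named Rpl or Rps followed by a number (with an optional a, x, y or l) was taken. The stalk proteins Rplp0 to Rplp2 and Rpsa were added. This gave 46 of the 18194 genes that the arrays could name, 24 of the large ribosomal subunit and 22 of the small one. Another 28 symbols of the family were met only on probe sets that list several symbols and were left out. The 46 genes are therefore not the whole family, and they were measured by 100 probe sets. The probe set with the highest mean stood for its gene. A total of 43 genes (22 large, 21 small) lay above 8.79 on the log2 scale, the 40th percentile of all genes, and were tested in every comparison. The other members, Rpl3l, Rpl39l and Rps16, lay below that level and had no test. Rpl3l and Rpl39l are paralogs that other tissues are known to use, and Rps16 is a core protein of the small subunit.

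Mouse motor neurons and ventral spinal cord were sampled, and their RNA was amplified with a T7-based linear method and hybridised to Affymetrix arrays, 1 array per sample. The 6 groups held 3 samples each: spinal motor neurons of SOD1 mutant and of wildtype mice, facial motor neurons (brainstem) of SOD1 mutant and of wildtype mice, and ventral spinal cord tissue of SOD1 mutant and of wildtype mice. Mutations of SOD1, a superoxide dismutase, cause a familial form of motor neuron disease. The labels give no SOD1 allele, sex, batch or method of picking the cells, and the D60 in the sample titles is not explained. They do not tie samples to animals, so the p-values describe how much these samples spread, some of which can be technical.

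A ribosome joins a small subunit, which reads the mRNA, to a large subunit, which forms the peptide bonds. Each subunit carries a set of proteins on its ribosomal RNA, most of them in 1 copy per ribosome. Neurons synthesise large amounts of protein for their axons and dendrites, and motor neurons have prominent ribosome-rich Nissl bodies. The mRNAs of most ribosomal proteins begin with a C followed by a run of pyrimidines, the 5′ terminal oligopyrimidine (TOP) motif, through which the growth pathway kinase mTOR controls their translation. The arrays measured mRNA, not its translation.

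Start sites of 40 of the 46 members were found in RefSeq's promoter table for GRCm38.p6, among them the members that lay below background (Rpl3l, Rpl39l and Rps16). The windows below hold 10 bases before the annotated start and 20 from it on. They are shown for genes described further on, with or without a TOP-like pyrimidine run near the annotated start. Capitals mark the longest run of at least 5 pyrimidines counted from a C within 2 bases of the annotated start, and any pyrimidines before that C stay in lower case. The first are large subunit genes that fell in mutant spinal motor neurons relative to mutant facial motor neurons.
Rpl38 (chr11:114668570-114668599, plus strand): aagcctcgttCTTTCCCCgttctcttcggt
Rpl13a (chr7:45128726-45128755, minus strand): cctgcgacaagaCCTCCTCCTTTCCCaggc
Rpl7a (chr2:26910797-26910826, plus strand): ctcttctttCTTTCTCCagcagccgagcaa
The next were higher (Rps18 and Rpl35) or lower (Rps10 and Rps24) in motor neurons than in tissue relative to the other ribosomal protein genes.
Rps18 (chr17:33955646-33955675, minus strand): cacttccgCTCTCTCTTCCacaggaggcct
Rpl35 (chr2:39005112-39005141, minus strand): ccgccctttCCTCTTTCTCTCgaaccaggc
Rps10 (chr17:27635225-27635254, minus strand): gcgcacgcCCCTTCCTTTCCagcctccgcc
Rps24 (chr14:24490668-24490697, plus strand): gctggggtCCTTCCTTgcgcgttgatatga
The last have no such run from a C within 2 bases of the annotated start. The Rps9 window does hold a run of at least 5 pyrimidines that spans the annotated start, but its first C lies farther before it. The Rplp0 window holds such a run from a C farther after the start. Both runs are left unmarked. Rpsa fell with the first, and Rps9 and Rplp0 were lower in motor neurons than in tissue after quantile normalization (Rplp0 in facial ones was 0.09 and 0.08 higher, in mutants and wildtypes, with a common median of the arrays).
Rpsa (chr9:120127756-120127785, plus strand): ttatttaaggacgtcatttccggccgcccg
Rps9 (chr7:3704031-3704060, plus strand): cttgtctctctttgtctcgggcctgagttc
Rplp0 (chr5:115559457-115559486, plus strand): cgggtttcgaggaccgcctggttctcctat

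Of the 40 genes, 14 (35%) had such a run, against 8.742% of 17491 protein-coding genes, and the runs were 5 to 18 bases long (median 8.5). In 8 genes (20%) the annotated start itself was a C that began at least 5 pyrimidines in a row, within a longer run in most of them, against 2.173% of coding genes. An annotated start is not a measured cap site, so a gene without a run near it may still carry the TOP motif. In the wider promoter, 250 bases before to 50 bases after the start and on both strands, CCGGAA, the core letters of an ETS factor site, was present in 60% of the 40 genes against 19.07% of coding genes. TATAAA was present in 10% against 13.34%, CACGTG in 7.5% against 7.901% and AAGATGGC in 5% against 3.225%. Genes with a pyrimidine run lay both among those that were relatively higher and among those that were relatively lower in motor neurons. A match of letters is a description of the sequence only.

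Probe sets of ribosomal proteins gave bright signals, and brightness depends on the probes as well as on the mRNA. On the tissue arrays, 21 to 23 of the 43 genes in mutants and 20 to 22 in wildtypes were within the brightest 1% of all genes. On the motor neuron arrays the number was 5 or 6 in mutant spinal, 3 to 12 in wildtype spinal, 7 to 16 in mutant facial and 11 to 13 in wildtype facial samples. Of the intensity summed over 1 probe set per gene, the 43 probe sets held 1.83 ± 0.08% in mutant spinal and 2.20 ± 0.58% in wildtype spinal motor neurons (SD, n = 3 each, as throughout). They held 2.28 ± 0.34% in mutant facial and 2.47 ± 0.10% in wildtype facial motor neurons, against 2.49 ± 0.08% in mutant and 2.41 ± 0.09% in wildtype tissue. Summed over all probe sets with 1 gene symbol, the mean shares were 1.33% in mutant and 1.61% in wildtype spinal motor neurons. They were 1.66% in mutant and 1.80% in wildtype facial ones, against 1.64% in mutant and 1.59% in wildtype tissue. For wildtype spinal and mutant facial motor neurons the order relative to tissue thus depended on the sum used.

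One array stood apart in these genes. The median of the 43 genes was 15.26 on wildtype spinal motor neuron replicate 2, against 15.77 and 15.72 on the other wildtype spinal arrays. On replicate 2 their share of the intensity summed over 1 probe set per gene was 1.57%. The motor neuron and tissue arrays also differed in RNA quality measures: the ratio of the 3′ to the 5′ actin control probe sets averaged 30.7 ± 7.36 in mutant spinal, 46.5 ± 9.06 in wildtype spinal, 39.8 ± 17.0 in mutant facial and 67.6 ± 7.44 in wildtype facial motor neurons, but lay between 1.56 and 1.78 in tissue. Its part in the results below was not tested, beyond the fits with this ratio as a covariate that are given. The summed level of 12 motor neuron markers (Chat, Isl1, Prph and others) lay between 19.12 and 19.42 on the motor neuron arrays against 18.46 to 18.57 in tissue. Microglia markers did not separate all motor neuron samples from tissue. Their summed level was 16.12 to 16.51 in mutant spinal motor neurons, against 16.20 to 16.31 in wildtype and 16.84 to 17.03 in mutant tissue. On the other motor neuron arrays it was 13.63 to 15.06. All 11 oligodendrocyte markers fell in every comparison of motor neurons with tissue. Levels here and below are log2(intensity + 16) after quantile normalization unless another scale is named, and in such bulk samples fewer cells of a type and less RNA per cell cannot be told apart.

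**Figure D1:**
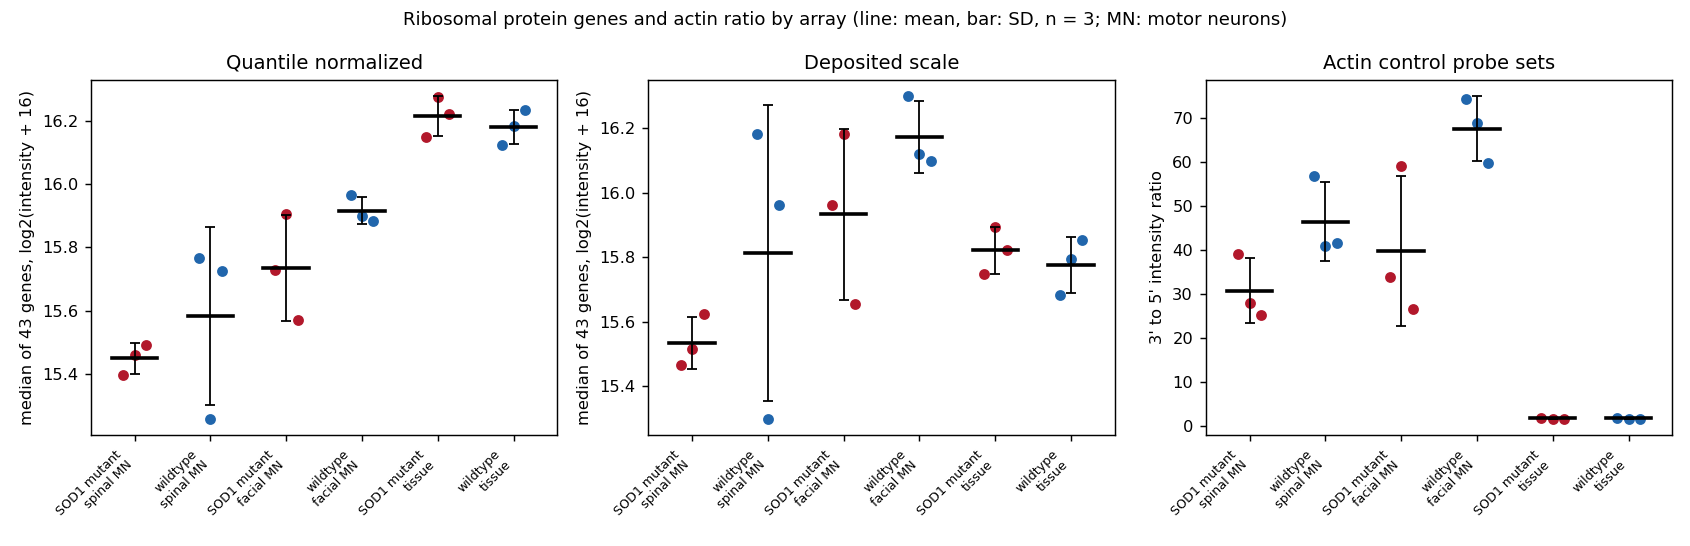
Median level of the 43 ribosomal protein genes on each array, after quantile normalization (left, log2) and on the deposited scale (middle, log2), and the actin 3′ to 5′ intensity ratio (right). Points are arrays, red for SOD1 mutant and blue for wildtype, lines are means and bars are SD (n = 3). Tissue is highest after quantile normalization (16.22 and 16.18) but not on the deposited scale (15.82 and 15.78), and the wildtype spinal group has the widest spread.

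The study's design sets SOD1 mutants against wildtypes in each kind of sample. No ribosomal protein gene passed the test (limma, Benjamini-Hochberg adjusted p under 0.05 over 10916 genes) in spinal motor neurons, facial motor neurons or tissue. Of all genes tested, 0.055% rose in mutant spinal motor neurons and 0.00916% fell there, 0% rose and 0% fell in mutant facial motor neurons, and 0.495% rose and 0.128% fell in mutant tissue. Few calls of any kind were therefore made. Members at an unadjusted p under 0.05 numbered 3 in spinal samples, 3 in facial samples and 6 in tissue. Of all 10916 genes, 1036, 1949 and 1082 had such a p in that order. The smallest adjusted p of a member was 0.218, 0.194 and 0.256 in the same order.

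In spinal motor neurons 29 of the 43 genes were lower and 14 higher in mutants, where 48.5% of all genes were lower. The median difference was -0.12, against 0.01 over all genes. With the actin ratio as a covariate the median was 0.0511 in spinal and 0.148 in facial motor neurons, so the direction of both turned. The large subunit had 15 of 22 genes lower and the small subunit 14 of 21. Rps6, the small subunit protein that is phosphorylated downstream of mTOR, had the largest difference. Its level was 11.22, 11.04 and 11.66 in mutant spinal motor neurons, against 12.16, 12.50 and 12.53 in wildtype ones. Every mutant array was below every wildtype array, and the difference was -1.09 (SE 0.24, adjusted p = 0.218 by limma). Rps6 differed by -0.54 (SE 0.29, adjusted p = 0.353 by limma) in facial motor neurons, where the groups overlapped, and by -0.16 in tissue. Its probe set averaged 12.02, while probe sets shared by Rps6 and other symbols reached 17.22, which were not used in the fit. Only 5 members had groups that did not overlap in spinal motor neurons, 2 higher and 3 lower, against 6.91% and 7.41% of all genes.

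The spinal comparison depended on wildtype spinal replicate 2, the array with the low ribosomal protein levels. Without it, 14 members fell in mutant spinal motor neurons, against 2.92% of all genes, and the median was -0.21. Replicate 2 stood out by the levels of these same genes, so leaving it out raises their wildtype levels as a set. The calls without it therefore show how far the result rests on 1 array and are no support for a genotype effect. Without wildtype spinal replicate 1 the median was 0.0041 and no member was called. Rpl35 without replicate 2 differed by -0.62 (adjusted p = 0.0147 by limma), Rps7 by -0.42 (adjusted p = 0.0217) and Rps6 by -1.04 (adjusted p = 0.0485). With all arrays Rpl35, a large subunit protein near the peptide exit, differed by -0.40 (SE 0.18, adjusted p = 0.521 by limma) and Rps7 by -0.28 (SE 0.13, adjusted p = 0.521). Rps4l, a paralog of Rps4x, was 0.58 higher in mutants (SE 0.28, adjusted p = 0.540 by limma), Rps25 0.68 (SE 0.39, adjusted p = 0.568) and Rplp0 0.32 (SE 0.16, adjusted p = 0.542). Microglia markers moved with genotype in these samples: their summed level was 16.12 to 16.51 in mutant spinal motor neurons against 13.63 to 15.02 in wildtype ones, with 10 of 11 tested markers higher and 2 that rose. Their part in the ribosomal protein values was not tested.

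In facial motor neurons 31 genes were lower and 12 higher in mutants, where 47.8% of all genes were lower, with a median of -0.08 against 0.02 over all genes (0.02 without mutant facial replicate 3). Lower values were found for 13 of 22 large and 18 of 21 small subunit genes. Rps7 was at 16.28, 16.41 and 16.25 in mutant facial motor neurons, against 16.51, 16.55 and 16.52 in wildtype ones. The arrays did not overlap, but the difference of -0.21 (SE 0.07, adjusted p = 0.194 by limma) missed the threshold. Rpl4, a large subunit protein that lines the exit tunnel, differed by -0.27 (SE 0.10, adjusted p = 0.219 by limma) and Rps10 by -0.25 (SE 0.10, adjusted p = 0.257), also without overlap. On the other side Rpl7a was 0.15 higher (SE 0.07, adjusted p = 0.290 by limma) and Rplp0 0.12 higher (SE 0.10, adjusted p = 0.562). Groups did not overlap for 2 higher and 6 lower members, against 13% and 11.1% of all genes. The microglia markers had a summed level of 14.48 to 14.70 in mutant and 13.99 to 15.06 in wildtype facial samples.

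In ventral cord tissue 34 of 43 genes were higher in mutants, 17 of 22 large and 17 of 21 small, while 48.7% of all genes were higher. The median difference was 0.05 against -0.01 over all genes. When arrays were shifted to a common median, 25 of 43 were higher and the median was 0.01. Rps27l, a p53-responsive paralog of Rps27, was at 13.67, 13.96 and 13.65 in mutant tissue and at 13.49, 13.40 and 13.21 in wildtype tissue. It was higher on every mutant array, by 0.39 (SE 0.11, adjusted p = 0.256 by limma). Rps20 was at 16.07, 15.93 and 15.96 in mutant tissue against 15.87, 15.72 and 15.70 in wildtype tissue, a difference of 0.22 (SE 0.07, adjusted p = 0.275 by limma). Rplp0, the base of the ribosomal stalk, differed by 0.16 (SE 0.05, adjusted p = 0.329 by limma), again without overlap. Rps27 was lowest relative to wildtype, at -0.62 (SE 0.24, adjusted p = 0.444 by limma). Groups did not overlap for 8 higher and 2 lower members, against 7.05% and 8.68% of all genes. In the same tissue the microglia markers lay at 16.84 to 17.03 in mutants against 16.20 to 16.31 in wildtypes, 14 of 14 tested were higher and 8 rose; their part was not tested.

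Among the genes whose genotype differences are given above, Rplp0 was higher, and Rpl4, Rps6, Rps7 and Rps27 were lower, in mutants in all 3 kinds of sample, with no call. This holds for the chosen probe sets: in tissue the 2 probe sets of Rps7 above background gave -0.09 and 0.09. The chosen probe set of Rps27 averaged 10.16, while one shared with other symbols reached 15.91. The differences between genotype effects gave no call either. Spinal motor neurons minus tissue had a median of -0.17 and 1 member at an unadjusted p under 0.05, against 965 of all 10916 genes. Past the limma threshold 0.0458% of all genes were higher and 0.00916% lower. Spinal minus facial motor neurons had a median of -0.03 and 2 members at an unadjusted p under 0.05, against 986 of all 10916 genes. Past the threshold were 0% of all genes in either direction. The members' median was above 0 without wildtype spinal replicate 1 (0.07) or 3 (0.02) or mutant facial replicate 2 (0.01). Rps25, a protein used by some internal ribosome entry sites, had the largest value there, 1.31 (adjusted p = 0.522 by limma), and Rps6 the lowest in spinal motor neurons minus tissue, -0.93 (adjusted p = 0.514 by limma). Without wildtype spinal replicate 2, 13 members fell in the spinal minus tissue interaction, against 3.34% of all genes. Among them were Rps20 at -0.59 (adjusted p = 0.00810 by limma) and Rpl35 at -0.68 (adjusted p = 0.0155). That array stood out by the low levels of these same genes, so these calls are no support for an interaction.

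**Figure D2:**
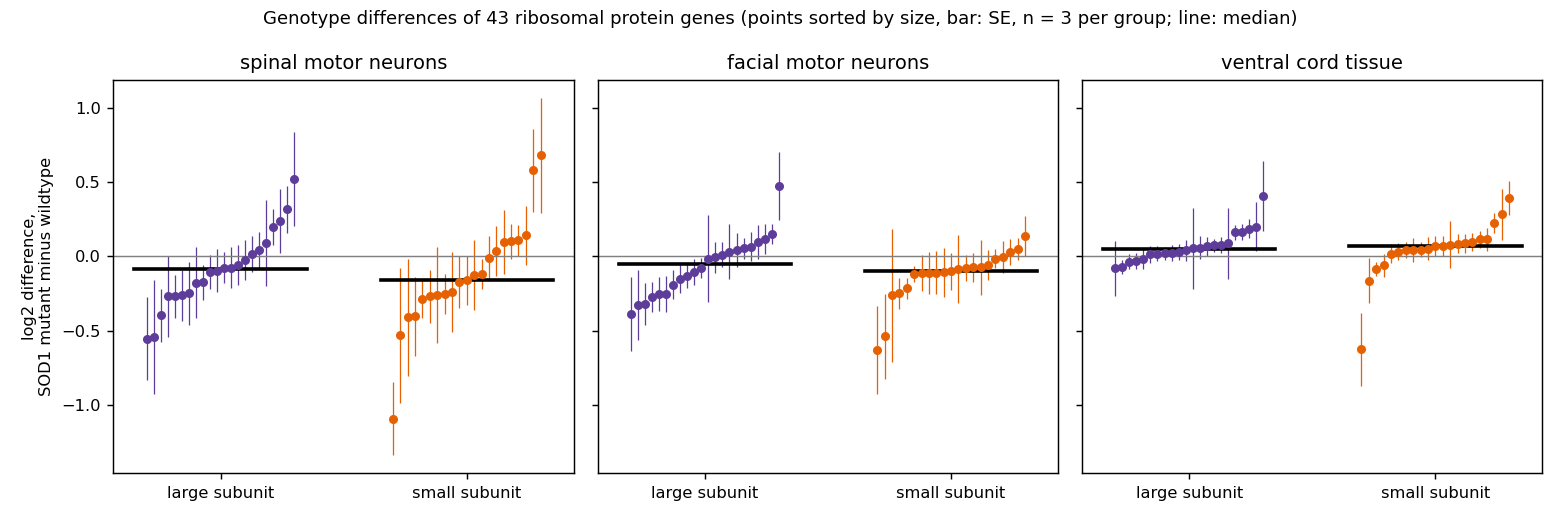
Log2 difference of each ribosomal protein gene, SOD1 mutant minus wildtype, in spinal motor neurons, facial motor neurons and ventral cord tissue, with large and small subunit genes apart. Points are genes sorted by size, bars are SE (n = 3 per group) and thick lines are medians. Most points lie within 0.5 of 0, and Rps6 in spinal motor neurons is the lowest at -1.09.

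The clearest pattern in these genes was between the motor neuron sites. Ribosomal protein mRNAs were mostly lower in spinal than in facial motor neurons, in both genotypes, which share no array. With the actin ratio as a covariate the wildtype median turned to 0.0937 with no call, while 3 calls were left in mutants. In mutants 37 of 43 genes were lower in spinal motor neurons, with a median of -0.26, while over all genes 50.6% were lower and the median was -0.005. In wildtypes 37 of 43 were lower too, with a median of -0.21, while over all genes 48.7% were lower. A total of 33 genes were lower in both, and no share of all genes is given for this count. Leaving out 1 array gave medians of -0.34 to -0.16 in mutants and -0.32 to -0.07 in wildtypes. The wildtype values include spinal replicate 2, the array with low levels of these same genes. The median of the 43 genes on wildtype spinal replicates 1 and 3 was 15.77 and 15.72, against 15.88 to 15.97 on wildtype facial arrays. On the deposited scale these arrays overlapped, at 16.18 and 15.96 against 16.10 to 16.30, and spinal replicate 2 was at 15.30. In mutants 6 members fell and none rose by limma, against 3.22% and 4.09% of all genes. An unadjusted p under 0.05 was found for 23 of 43 members, against 2495 of all 10916 genes. In wildtypes 2 fell and none rose, against 1.83% and 2.13% of all genes. There 11 of 43 members had an unadjusted p under 0.05, against 2346 of all 10916 genes. Rps4l was the only gene called in both genotypes. Without limma's mean-variance trend none was called in mutants and 1 in wildtypes, and with the mean over a gene's probe sets 1 in each. The mutant count was 1 without spinal replicate 1 or 2, 3 without spinal replicate 3 and 2 without facial replicate 1. The wildtype count was 0 without spinal or facial replicate 3, 1 without facial replicate 1 or 2, and 4 (2 higher, 2 lower) without spinal replicate 2. Shares of all genes are not given for these settings, so the counts show only that the calls depend on them.

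Both subunits shared the shift. Small subunit genes were lower for 20 of 21 in mutants and 19 of 21 in wildtypes, with medians of -0.26 and -0.22. Large subunit genes were lower for 17 of 22 in mutants and 18 of 22 in wildtypes, with medians of -0.27 and -0.18. Spinal and facial arrays did not overlap, with spinal lower, for 22 members in mutants and 11 in wildtypes, against 14.4% and 13.5% of all genes. They did not overlap with spinal higher for 3 members in mutants and 1 in wildtypes, against 14% and 14.9%.

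Among the small subunit genes, Rps4l had the largest difference. Its level was 11.80, 11.70 and 10.99 in mutant spinal motor neurons, against 12.70, 12.66 and 12.30 in mutant facial ones. In wildtypes it was 10.76, 10.95 and 11.04 in spinal motor neurons, against 13.06, 12.25 and 12.60 in facial ones. All spinal arrays were below all facial arrays, by 2.08-fold in mutants (log2 difference -1.06, SE 0.24, adjusted p = 0.0235 by limma) and 3.29-fold in wildtypes (-1.72, SE 0.25, adjusted p = 0.00969). Tissue, at 12.73 ± 0.07 in mutants and 12.45 ± 0.39 in wildtypes, was close to the facial samples. The wildtype call was lost with the actin ratio as a covariate (adjusted p = 0.187 by limma), without wildtype spinal replicate 3 (0.0513) and without wildtype facial replicate 3 (0.0582). In mutants it was lost without spinal replicate 3 (0.0782), facial replicate 1 (0.0693) or facial replicate 2 (0.0509).

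Rpsa, a small subunit protein also known as the laminin receptor precursor, was at 15.39, 15.44 and 15.76 in mutant spinal motor neurons, against 16.15, 16.44 and 15.90 in mutant facial ones. The mutant groups did not overlap, and the gene fell by 0.63 on the log2 scale (1.55-fold, SE 0.14, adjusted p = 0.0210 by limma). In wildtypes it was at 15.91, 15.40 and 16.09 in spinal against 16.23, 16.33 and 16.27 in facial motor neurons, a difference of -0.48 (SE 0.16, adjusted p = 0.134 by limma). Rps14, a protein of the platform of the small subunit, was at 15.97, 16.13 and 16.25 in mutant spinal against 16.49, 16.72 and 16.42 in mutant facial motor neurons. These arrays did not overlap either, and Rps14 differed by -0.43 (1.35-fold, SE 0.11, adjusted p = 0.0315 by limma). In wildtypes 2 spinal arrays, at 16.55 and 16.61, lay at the level of the facial arrays (16.47 to 16.59) and replicate 2 lay at 15.55, so that the difference of -0.28 had an adjusted p of 0.541 by limma. The Rpsa call in mutants was lost without spinal replicate 1 (0.0911), spinal replicate 2 (0.0773) or facial replicate 1 (0.0512). That of Rps14 was lost without spinal replicate 1 (0.137) or 2 (0.0857) or facial replicate 1 (0.0597) or 2 (0.0609).

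The large subunit genes called in mutants had smaller differences and a tight spread. Rpl38, a protein known for its part in the translation of Hox mRNAs, was at 16.86, 16.80 and 16.91 in mutant spinal against 17.16, 17.24 and 17.15 in mutant facial motor neurons. No arrays overlapped, and it differed by -0.33 (1.26-fold, SE 0.07, adjusted p = 0.0190 by limma), with -0.30 (adjusted p = 0.169) in wildtypes. Rpl13a, which in human cells is also part of an interferon-responsive silencing complex, was at 16.52, 16.63 and 16.62 in mutant spinal against 16.84, 17.05 and 16.91 in mutant facial motor neurons. It differed by -0.35 (1.27-fold, SE 0.08, adjusted p = 0.0269 by limma), again without overlap, and by -0.24 (adjusted p = 0.342) in wildtypes. Rpl7a was at 16.07, 16.06 and 16.07 in mutant spinal against 16.39, 16.43 and 16.32 in mutant facial motor neurons, a difference of -0.31 (1.24-fold, SE 0.08, adjusted p = 0.0421 by limma). Its wildtype difference was -0.09 (adjusted p = 0.614 by limma), with spinal arrays at 16.07 to 16.24 against facial arrays at 16.22 to 16.25. Leaving out any 1 array lost the mutant call of Rpl7a, leaving out spinal replicate 1 (0.0726) or 2 (0.0773) lost that of Rpl38, and leaving out any 1 spinal array lost that of Rpl13a (up to 0.118).

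Rpl6 was the other gene called in wildtypes. It was at 15.50, 15.74 and 15.57 in wildtype spinal against 16.20, 16.02 and 16.06 in wildtype facial motor neurons, without overlap, a difference of -0.49 (1.40-fold, SE 0.11, adjusted p = 0.0402 by limma). In mutants it was at 15.76, 15.91 and 15.73 in spinal against 16.03, 16.22 and 16.06 in facial motor neurons. These did not overlap either, with a difference of -0.30 (SE 0.10, adjusted p = 0.0864 by limma). The wildtype call kept its side of the threshold in 8 of 22 settings, and was lost without spinal replicate 1 (0.0652) or 3 (0.127) or any facial array (up to 0.202). Rps3, the small subunit protein at the mRNA entry, missed the threshold narrowly in mutants at -0.38 (adjusted p = 0.0529 by limma), as did Rps15 at -0.56 (adjusted p = 0.0589). Rps19, the gene most often mutated in Diamond-Blackfan anaemia, was at -0.47 (adjusted p = 0.128 by limma).

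The few members with higher values in spinal motor neurons had no call. In mutants these were Rps25 at 0.64, Rpl27a at 0.51, Rpl14 at 0.41, Rpl12 at 0.17, Rplp2 at 0.09 and Rpl4 at 0.04. In wildtypes they were Rpl14 at 0.65, Rpl39 at 0.23, Rpl11 at 0.18, Rps27 at 0.10, Rpl27a at 0.09 and Rps24 at 0.06. Rps25, Rpl12, Rpl14, Rpl27a, Rpl39 and Rps27 are among the 9 genes whose chosen probe set was over 2 log2 units dimmer than a probe set they share with other symbols. When every gene was measured relative to the median of the 43 on each array, Rps25 (0.93) and Rpl27a (0.79) were higher in mutant spinal than in mutant facial motor neurons on both the quantile and the deposited scale, against 9.48% of all genes, and no member was lower, against 0.614%. In wildtypes no member passed in either direction, against 0.824% and 0.147% of all genes.

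The spinal to facial direction was the same under the other scalings. With a common median the members' median was -0.44 in mutants and -0.24 in wildtypes, and on the deposited scale -0.34 and -0.21. Spinal motor neurons had the lower actin ratios, 25.3 to 39.1 against 26.6 to 59.0 in facial ones of mutants and 40.9 to 56.9 against 59.7 to 74.4 in facial ones of wildtypes. The ratio of the 3′ to the 5′ GAPDH control probe sets ran the other way, with means of 21.1 ± 0.58 in spinal against 18.4 ± 3.60 in facial motor neurons of mutants and 32.4 ± 15.7 against 23.6 ± 3.52 in those of wildtypes, and with overlapping arrays in both. No fit with the GAPDH ratio was made. Microglia markers also differed by site in mutants, where 10 of 11 were higher in spinal samples and 9 rose (median 1.80), but not in wildtypes, where 5 of 10 were higher and none rose. Interneuron markers were higher in spinal samples for 7 of 8 in both genotypes, with 3 that rose in mutants and 5 in wildtypes. The part of these cells was not tested.

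**Figure D3:**
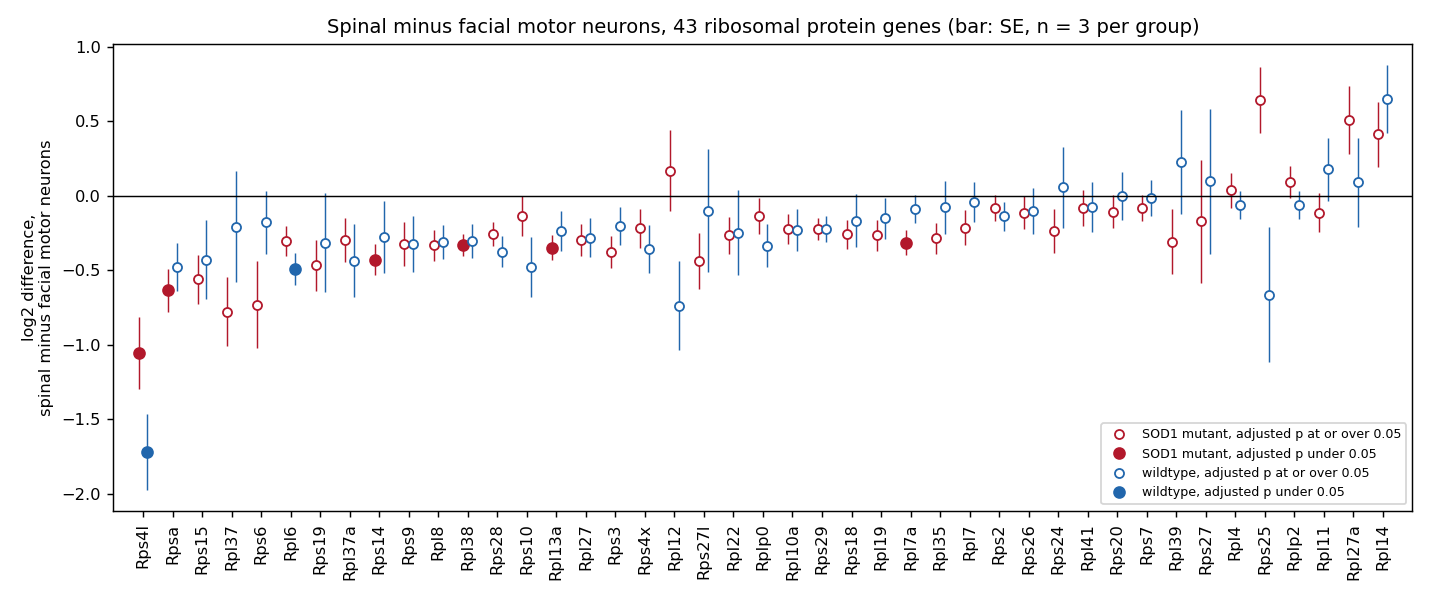
Log2 difference of each of the 43 ribosomal protein genes, spinal minus facial motor neurons, in SOD1 mutants (red) and wildtypes (blue). Filled points passed the test at an adjusted p under 0.05 and bars are SE (n = 3 per group). In each genotype 37 of 43 points lie below 0, and Rps4l is the lowest, at -1.06 and -1.72. In the fit adjusted for the actin ratio, not plotted, the wildtype median is 0.0937.

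Other lists of ribosome production are given beside these values, and no difference between lists was tested. Among 47 ribosome assembly factors, 39 were higher in spinal than in facial motor neurons of mutants, with a median of 0.30 and 2 that rose, Tsr1 (0.63) and Rrp1 (0.62), a share close to the 4.09% of all genes. In wildtypes 33 of 47 were higher and none was called. Subunits of RNA polymerases I and III, which transcribe ribosomal RNA, were higher for 18 of 27 in mutants and 19 of 27 in wildtypes. Proteins of the mitochondrial ribosome were lower for 54 of 76 in mutants, of which 3 fell and 1 rose (3.22% and 4.09% of all genes), and for 40 of 76 in wildtypes with no call. Other mRNAs known to carry a TOP motif were higher for 8 of 15 in mutants and 5 of 15 in wildtypes, with no call, and for 5 of 15 in each genotype with a common median.

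**Figure D4:**
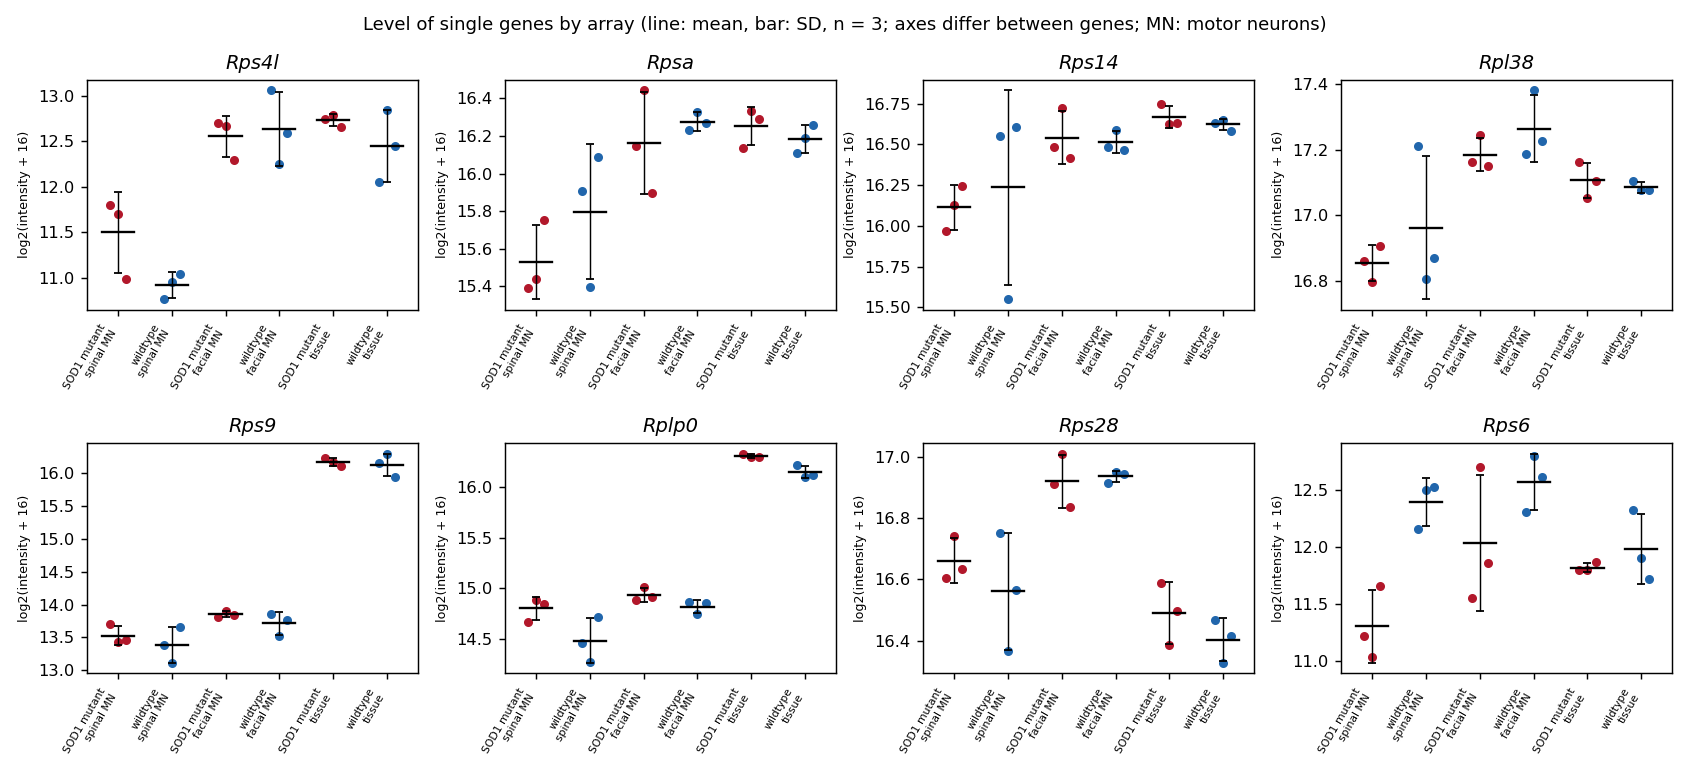
Level of Rps4l, Rpsa, Rps14, Rpl38, Rps9, Rplp0, Rps28 and Rps6 on each array, as quantile normalized log2(intensity + 16), by group. Points are arrays, red for SOD1 mutant and blue for wildtype, lines are means and bars are SD (n = 3). Rps4l is lowest in spinal motor neurons (11.50 and 10.92), and Rps9 and Rplp0 lie far lower in motor neurons than in tissue on this scale, while with a common median Rplp0 in facial motor neurons is at 0.09 in mutants and 0.08 in wildtypes relative to tissue.

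Motor neurons were also set against ventral cord tissue, spinal tissue for both sites, since brainstem tissue was not analysed here. For the family as a whole the direction of this comparison depended on the scaling. After quantile normalization mutant spinal motor neurons had 7 members that rose and 29 that fell, against 42% and 26.8% of all genes, with a median of -0.45 (0.24 over all genes). In wildtype spinal motor neurons 5 rose and 18 fell, against 35.5% and 23.1%, with a median of -0.31 (0.22 over all genes). In mutant facial motor neurons 8 rose and 19 fell, against 40.6% and 24.7%, with a median of -0.13 (0.25 over all genes). In wildtype facial motor neurons 16 rose and 19 fell, against 41.3% and 26.9%, with a median of 0.06 (0.22 over all genes), which was at -0.01 to -0.04 without tissue replicate 1 or 3 or facial replicate 1 or 3.

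When the arrays were shifted to a common median instead, the medians were 0.65, 1.06, 1.12 and 1.25 in the same order, and those of all genes 0.74, 0.69, 0.83 and 0.77. Then 30 members rose and 6 fell in mutant spinal, 30 rose and 2 fell in wildtype spinal, 36 rose and 1 fell in mutant facial, and 38 rose and 1 fell in wildtype facial motor neurons. The shares of all genes that rose were 59%, 50.5%, 60% and 58%, and of those that fell 15.3%, 13.7%, 13.8% and 15.9%. Relative to all genes, the members were therefore 0.69 lower after quantile normalization and 0.09 lower with a common median in mutant spinal motor neurons, but 0.52 lower and 0.37 higher in wildtype spinal ones. No direction is given for the family between motor neurons and tissue.

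Single members lay far from the rest after quantile normalization. Rps9, a small subunit protein known in yeast for its part in decoding accuracy, was at 13.70, 13.43 and 13.46 in mutant spinal and 13.38, 13.12 and 13.67 in wildtype spinal motor neurons, against 16.22, 16.17 and 16.11 in mutant and 16.15, 16.28 and 15.94 in wildtype tissue. No motor neuron array came near the tissue arrays. The difference of Rps9 was -2.64 on the log2 scale (6.23-fold lower, SE 0.10, adjusted p = 3.31e-08 by limma) in mutants and -2.73 (6.65-fold lower, SE 0.17, adjusted p = 6.55e-06) in wildtypes. In facial motor neurons the differences were -2.32 (SE 0.09) in mutants and -2.41 (SE 0.11) in wildtypes. With a common median the spinal differences were -1.41 in mutants and -1.47 in wildtypes.

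Rplp0, which anchors the stalk that recruits elongation factors, was at 14.67, 14.89 and 14.84 in mutant spinal motor neurons against 16.33, 16.30 and 16.29 in mutant tissue. In wildtypes it was at 14.46, 14.28 and 14.72 in spinal motor neurons against 16.22, 16.10 and 16.12 in tissue. The groups were far apart, and Rplp0 differed by -1.50 in mutants (SE 0.08, adjusted p = 1.76e-07 by limma) and by -1.66 in wildtypes (SE 0.13, adjusted p = 2.24e-05). With a common median its differences were close to 0, -0.22 in mutant and -0.29 in wildtype spinal, and 0.09 in mutant and 0.08 in wildtype facial motor neurons. Rps4l in spinal motor neurons differed from tissue by -1.23 (SE 0.20, adjusted p = 3.90e-04 by limma) in mutants and -1.53 (SE 0.23, adjusted p = 5.64e-04) in wildtypes. In facial motor neurons its differences from tissue were -0.18 and 0.19, with no call.

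Because the shift of the whole family depended on the scaling, each gene was also tested relative to the median of the 43 genes on its array. A gene counted as different when it passed on both the quantile and the deposited scale. In spinal motor neurons 20 members were relatively higher in mutants and 11 in wildtypes, against 41.7% and 17.8% of all genes, and 9 and 8 were relatively lower, against 11.7% and 10.8%. Shared by both genotypes were 11 of the 20 and of the 11 higher genes, and 7 of the 9 and of the 8 lower genes. In facial motor neurons 17 were relatively higher in mutants and 15 in wildtypes, against 22.4% and 20.7% of all genes, and 9 and 11 were relatively lower, against 14.2% and 20.5%. All 15 higher genes of wildtypes were among the 17 of mutants, and all 9 lower genes of mutants among the 11 of wildtypes. Spinal and facial motor neurons were set against the same tissue arrays here. Shares of all genes that passed in both genotypes are not given, so the shared counts and the genes listed below are a description. They do not set the members apart from other genes.

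The genes relatively lower in spinal motor neurons of both genotypes were Rpl4 and Rplp0 of the large and Rps9, Rps10, Rps15, Rps19 and Rps24 of the small subunit. The same 7 genes were relatively lower in facial motor neurons, with Rpl11 and Rpl37a beside them. Rps9 was lowest, at -1.87 in mutant and -2.13 in wildtype spinal motor neurons. Rps24, one of the genes mutated in Diamond-Blackfan anaemia, was at -1.05 and -0.71 in the same order, Rps19 at -1.01 and -0.83, and Rps10 at -0.76 and -0.98. Relatively higher in spinal motor neurons of both genotypes were Rpl10a, Rpl13a, Rpl22, Rpl35, Rpl38, Rps7, Rps18, Rps20, Rps27l, Rps28 and Rps29. Rps18, a protein of the head of the small subunit, was at 1.29 in mutant and 1.41 in wildtype spinal motor neurons and at 1.27 and 1.24 in facial ones. Rps28 was at 0.94 and 0.76 in spinal and 0.91 and 0.80 in facial motor neurons. Rps27l was at 0.92 and 1.56 in spinal and 1.07 and 1.32 in facial motor neurons. Rpl22, an RNA-binding member of the large subunit, was at 0.63 and 0.91 in spinal motor neurons. The highest relative values belonged to Rps25 and Rpl14, which are among the 9 genes with a dim probe set. Rps25 was at 3.24 in mutant and 2.47 in wildtype spinal motor neurons and at 2.31 and 2.80 in facial ones, and missed the threshold on the deposited scale in wildtype spinal ones. Rpl14 was at 3.05 and 2.70 in spinal and 2.35 and 1.72 in facial motor neurons, and missed it there in both wildtype comparisons.

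**Figure D5:**
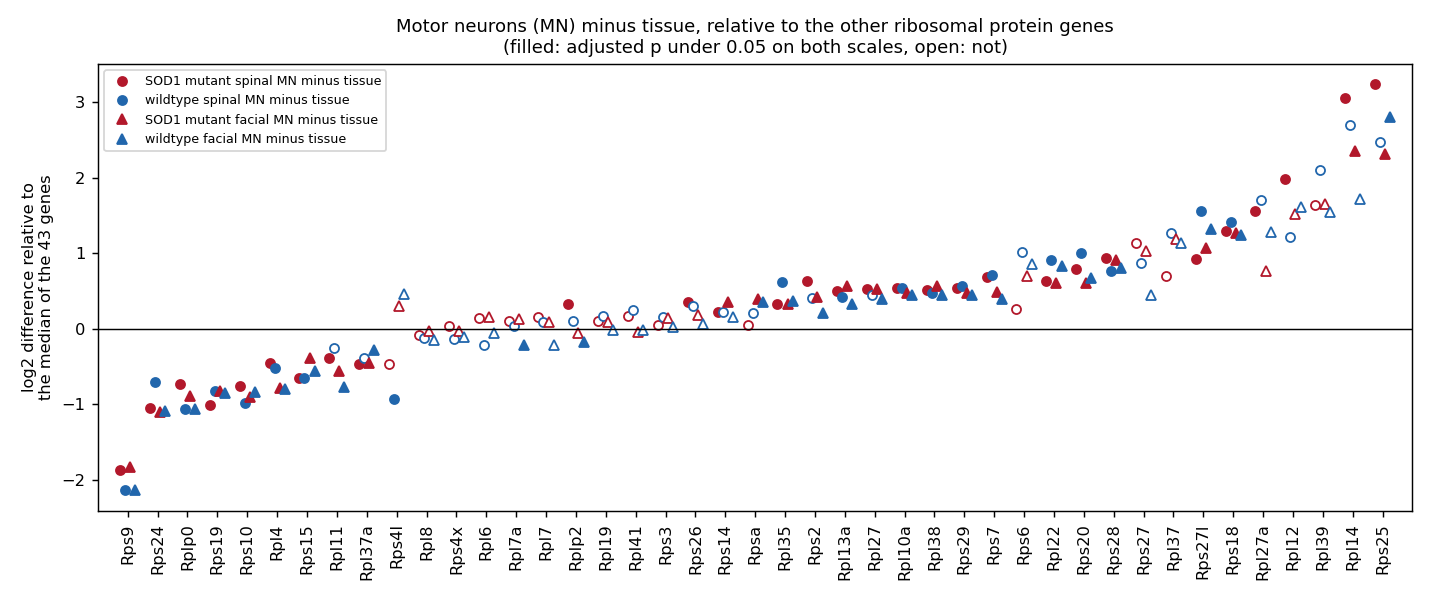
Log2 difference of each of the 43 genes, motor neurons minus ventral cord tissue, relative to the median of the 43 on each array. Circles are spinal and triangles facial motor neurons, red for SOD1 mutant and blue for wildtype (n = 3 per group, errors not drawn), and filled symbols passed on both scales. Rps9 lies lowest in all 4 comparisons (-1.83 to -2.14), Rps18 lies between 1.24 and 1.41, and Rps25 in mutant spinal motor neurons is highest at 3.24.

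How far such single values describe a gene was read from its other probe sets. Of the 46 members, 23 had 1 probe set and 23 had 2 or more, up to 6, and 19 had 2 or more above background. Between spinal and facial motor neurons, all probe sets of a gene had the same sign for 17 of the 19 in mutants and 13 of the 19 in wildtypes, against 53.8% and 52.9% of all genes with several. The range between probe sets of a gene had a median of 0.21 in mutants and 0.35 in wildtypes. In mutants the exceptions were Rpl35 and Rps20, and in wildtypes Rpl7, Rpl13a, Rps3, Rps9, Rps20 and Rps24. For genotype the signs were the same for 13 of 19 in spinal motor neurons, 12 of 19 in facial motor neurons and 9 of 19 in tissue, against 52.6%, 47.7% and 47.7% of all genes.

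Between motor neurons and tissue the probe sets of a gene often disagreed. Their signs were the same for 11 of 19 genes in mutant spinal, 9 of 19 in wildtype spinal, 10 of 19 in mutant facial and 9 of 19 in wildtype facial motor neurons, against 51.7% to 53.6% of all genes. The median range was 1.22 to 1.46 log2 units. The probe set of Rps9 used above, a type that also matches related sequences, gave -2.64 in mutant and -2.73 in wildtype spinal motor neurons, while a second gave -0.75 in mutants and 1.57 in wildtypes. The 3 probe sets of Rps18 above background gave 0.52, -0.28 and -1.56 in mutant and 0.81, 0.04 and -1.18 in wildtype spinal motor neurons. Those of Rpl13a gave -0.18, -0.92, 0.58 and 1.39 in wildtype spinal motor neurons. The differences of Rps9 and Rps18 from tissue are thus those of 1 probe set each, and their probe positions were not used here. Probe set type also went with the value: in both genotypes those ending in a_at had a median of -0.73 in spinal motor neurons minus tissue, against -0.02 in mutants and 0.23 in wildtypes for those ending in at. Between spinal and facial motor neurons the 4 types were alike, with medians of -0.27 to -0.32 in mutants and -0.19 to -0.33 in wildtypes.

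A further 110 probe sets list a ribosomal protein gene beside other symbols, 98 of them above background, and were used only as a side view. In spinal minus facial motor neurons 89 of the 98 were lower in mutants (median -0.27) and 76 in wildtypes (median -0.18). For genotype, 74 of 98 were lower in mutant spinal motor neurons and 74 of 98 higher in mutant tissue. With a common median 48 of 98 were higher in mutant tissue. In all, 28 symbols of the family were met only on such shared probe sets. Rpl3, Rpl5, Rpl10, Rpl10l and Rps27a, core proteins or paralogs of the family, had no probe set with their symbol alone. Rps16 had a level of 4.79 to 5.56 over the groups on its own probe set, while probe sets shared with other symbols reached 16.86, so its low value describes that probe set.

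Set beside tissue, other lists of the translation machinery had the following calls after quantile normalization, where 35.5% to 42% of all genes rose and 23.1% to 26.9% fell. Of 76 mitochondrial ribosomal protein genes, 46 rose and 6 fell in mutant spinal, 45 and 2 in wildtype spinal, 47 and 2 in mutant facial, and 52 and 4 in wildtype facial motor neurons. TOP mRNAs outside the ribosomal proteins, such as those of elongation factors, fell for 11, 10, 10 and 11 of 15 genes in that order. Nascent chain and ribosome binding factors rose for 11, 11, 7 and 11 of 16. With a common median, where 50.5% to 60% of all genes rose and 13.7% to 15.9% fell, 69, 67, 72 and 71 of the mitochondrial genes rose and 1, 0, 0 and 1 fell. The TOP mRNAs then fell for 4, 5, 3 and 5 genes and rose for 7, 7, 8 and 8, so no direction is given for them. Nascent chain factors rose for 16, 14, 16 and 16 of 16. Between genotypes, mitochondrial ribosomal protein genes were lower for 56 of 76 in mutant spinal motor neurons, 56 of 76 in mutant facial motor neurons and 47 of 76 in mutant tissue, with no call (1 fell in tissue with a common median).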

How the data were processed

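The authors deposited 1 intensity per probe set and array, on a linear scale, after T7-based amplification per the labels. The software behind it is not given in the sources used here. Every array of deposited values has the same mean, 2500, once the top and bottom 2% of probe sets are trimmed. Their medians were 533 to 583 on tissue and 286 to 341 on motor neuron arrays.

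From the deposited intensities, log2(value + 16) was computed and quantile normalized over 18 arrays. Differences are on this scale, which understates changes of dim genes. Of 45101 probe sets, 34958 had 1 gene symbol in GEO's platform annotation, and 34754 of these matched a gene of the reference table. The probe set with the highest mean stood for its gene. Genes under the 40th percentile of a fit's arrays were left out. Each of 11 comparisons was fitted on its own groups with limma 3.58.1 in R 4.3.3 (lmFit, eBayes with trend), with Benjamini-Hochberg adjustment over all 10916 genes. SE is limma's standard error. The fits were tested on simulated data. Precision is limited by 3 arrays per group. The background levels, such as 8.79, are percentiles, not detection calls.

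Genes were named by a rule: members called without overlap, largest first, filled by p, plus a fixed set of members. The members and lists were chosen with earlier results of these data known. The tests relative to the 43 genes' median, the deposited scale and the fit without both replicate 1 wildtype motor neuron arrays were added after the data were seen. Other alternatives were scaling, pseudocounts of 1 and 64, filters, choice of probe set, trend, array weights, all 18 arrays together, a replicate block, the actin ratio and leaving out each array.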

Additional observations from a re-analysis of the deposited data

How the results depend on the processing

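Over the named genes, 1984 values kept their direction and their side of the threshold under the alternatives, 119 lost a call, 18 gained one, 35 moved and 21 turned direction. The cause of each change below was not tested. A setting can change the calls of all genes, and shares of all genes are not given for the counts below. These counts therefore describe how calls depend on the setting and are not results about the members. The deposited scale and the fit without both replicate 1 wildtype motor neuron arrays were chosen after seeing the data.

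For genotype, the number of members called was 0 in all 3 kinds of sample, but 1 in tissue with a replicate block, 1 in spinal motor neurons with all 18 arrays in one fit and 1 with array weights, and 2 in facial motor neurons with array weights. Leaving out 1 array gave 0 to 14 in spinal motor neurons, 0 to 1 in facial motor neurons and 0 to 13 for the spinal minus tissue interaction. With the actin ratio as a covariate the medians were 0.0511 in spinal and 0.148 in facial motor neurons. Leaving out 1 array gave medians of -0.21 to 0.0041 in spinal and -0.16 to 0.0179 in facial motor neurons, and -0.21 to 0.0745 for the spinal minus facial interaction, which was 0.0713 without both replicate 1 wildtype motor neuron arrays.

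For spinal minus facial motor neurons, the wildtype count of 2 was 1 with a common median, no filter, the mean of probe sets, every probe set tested, no trend, a replicate block, the deposited scale or without both replicate 1 arrays. It was 0 with the actin ratio (median 0.0937), 10 with all 18 arrays in one fit, 12 with array weights, and 0 to 4 without 1 array. The mutant count of 6 was 2 with no filter, 1 with the mean of probe sets, 3 without probe sets ending in x_at and s_at, 0 with no trend, 3 with the actin ratio, 2 on the deposited scale, and 1 to 9 without 1 array.

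For motor neurons minus tissue, a common median turned the medians to 0.65 in mutant spinal, 1.06 in wildtype spinal and 1.12 in mutant facial motor neurons. The deposited scale gave 0.24 in mutant facial and 0.24 in wildtype spinal motor neurons, with 13 calls in place of 23 in the last. The wildtype facial median of 0.06 was -0.11 with a filter at the 60th percentile, -0.0268 with the mean of probe sets, -0.19 without x_at and s_at probe sets, and -0.0415 to 0.0679 without 1 array. With a common median, differences were above 0 in mutant spinal motor neurons for Rpl37a (0.0506), in wildtype spinal ones for Rps24 (0.17), Rps15 (0.18) and Rpl4 (0.26), and in mutant facial ones for Rps10 (0.0897), Rplp0 (0.0932), Rps19 (0.0325), Rpl4 (0.18), Rpl11 (0.42) and Rpl37a (0.54). In wildtype facial ones they were above 0 for Rps24 (0.0938), Rplp0 (0.0813), Rps19 (0.18), Rps10 (0.39), Rpl4 (0.37), Rpl11 (0.41) and Rps15 (0.62). Rps18 was at -0.60 in mutant spinal and -0.15 in mutant facial motor neurons with the mean of its probe sets, and at -0.28 and -0.10 without x_at and s_at probe sets.

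The labels do not say whether replicate numbers pair the samples, and the main fits used no pairing. Deviations of same-numbered samples had correlations of -0.07 to 0.30, not above 0.1 in every pair of any comparison. With 3 arrays per group, these correlations cannot show whether same-numbered samples share an animal or a batch. Every probe set chosen above background was measured on 3 arrays per group, which limits precision.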
